A study of Mus musculus with 6 samples.

Results

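Mir708, Mir592 and Mir582 are mouse microRNAs (miRNAs) whose hairpins lie on the sense strand inside protein-coding genes, namely Tenm4, Grm8 and Pde4d. They are 3 of the 1155 rows of a table of read counts per miRNA gene, and 3 of the 283 rows with enough counts to be tested. The 3 rows were selected on their higher counts in cells without Fbxw7 in these same libraries and on their coding hosts. Their difference between genotypes is therefore given as a description, with no test. The libraries are small RNA libraries from cultured mouse embryonic fibroblasts, connective tissue cells grown from embryos. Of them, 3 are labelled WT (wild type) and 3 Fbxw7 KO, a knockout of the subunit that selects substrates for an SCF ubiquitin ligase. The labels give no allele, embryonic age, passage or treatment. They also do not state that the replicates are separate cultures or embryos, so each p-value reflects the spread among these 6 samples alone, and that spread may be technical.

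A miRNA inside a host gene can be made from the host's own primary transcript. The hairpin is cut out of the intron or exon by Drosha, trimmed by Dicer, and either arm can be loaded into an Argonaute protein, where bases 2 to 8, the seed, pair with target mRNAs. TENM4 is a teneurin, a large transmembrane protein of neural and mesenchymal development, GRM8 is a metabotropic glutamate receptor of presynaptic terminals, and PDE4D is a phosphodiesterase that degrades cyclic AMP. Mir708 is known as a miRNA induced together with Tenm4 by the transcription factor CHOP during endoplasmic reticulum stress, and Mir592 is known mainly from neurons.

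The mature arms are shown because each count row adds up both arms of its hairpin, and because the seed decides which other miRNAs a member resembles. Capitals mark the seed, and the sequences come from RefSeq on GRCm38.p6.
miR-708-5p: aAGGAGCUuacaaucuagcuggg
miR-708-3p: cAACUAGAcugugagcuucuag
miR-592-5p: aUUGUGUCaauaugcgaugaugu
miR-592-3p: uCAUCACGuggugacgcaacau
miR-582-5p: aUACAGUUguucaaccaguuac
miR-582-3p: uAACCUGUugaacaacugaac
miR-28a-5p, the arm of another miRNA with the seed of miR-708-5p: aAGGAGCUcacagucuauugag

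The 6 arms of the members carry 6 different seeds, so no pair of the 3 members shares a seed. The whole hairpins of Mir592 and Mir582 follow, with both mature arms in capitals, to show what a counted row spans.
Mir592 hairpin, chr6:27936655-27936750, minus strand: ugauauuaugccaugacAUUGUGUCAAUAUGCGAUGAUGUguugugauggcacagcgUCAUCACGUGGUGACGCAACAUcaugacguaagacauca
Mir582 hairpin, chr13:109324744-109324824, plus strand: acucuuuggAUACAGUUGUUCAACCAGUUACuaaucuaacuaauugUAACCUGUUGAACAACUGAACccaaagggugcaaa

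All 3 hairpins lie inside very long genes, by the GENCODE M21 annotation of the same assembly. Mir708 (chromosome 7, 96249424 to 96249532, plus strand) lies in intron 1 of the coding transcript Tenm4-202, an intron of 143 kb, at 37.8 kb from the transcript start. Mir592 (chromosome 6, 27936655 to 27936750, minus strand) lies in intron 3 of the coding transcript Grm8-202, an intron of 219 kb, at 198 kb from the transcript start. The only annotated exon that covers the Mir592 hairpin belongs to Grm8-206, a transcript without a coding annotation. Mir582 (chromosome 13, 109324744 to 109324824, plus strand) lies in intron 3 of Pde4d-209, an intron of 707.7 kb, at 671 kb from the transcript start. Of the 12 coding transcripts of Pde4d, 4 span the hairpin and 8 start downstream of it. The nearest coding start upstream of it is 64.1 kb away. For Tenm4, 4 of 6 coding transcripts span the hairpin, and for Grm8 4 of 5 do. The map of each hairpin in its host transcript shows these positions. None of the 3 rows overlaps another counted row. No arm or hairpin sequence available for them shares 20 bases with a sequence available for another row. Each host but Grm8 holds 1 further annotated miRNA, Mir6394 in Tenm4 and Mir1904 in Pde4d, and both of these rows had 0 counts in all 6 libraries.

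**Figure D1:**
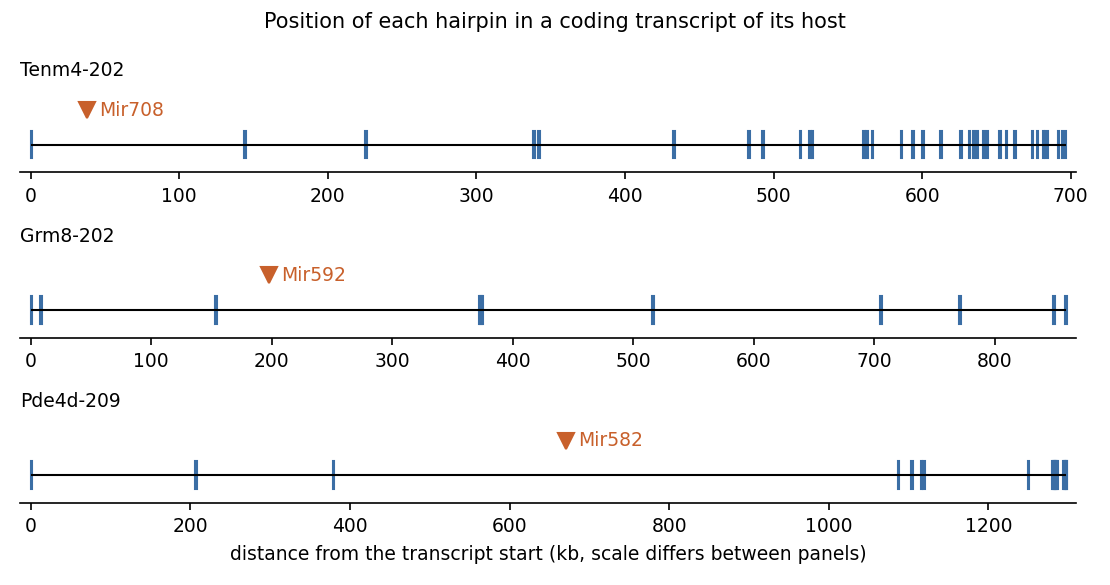
Position of the Mir708, Mir592 and Mir582 hairpins (orange triangles) in a coding transcript of each host, with exons as blue bars and the distance from the transcript start in kb on the horizontal axis, whose scale differs between panels. Mir708 lies in intron 1 and Mir592 and Mir582 each lie in intron 3.

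The libraries held 2932439 to 5019700 counts. Levels are in CPM (counts scaled to library totals corrected by TMM factors) unless given as FPKM, which also divides by hairpin length. On the axis of second-largest variance among the 283 tested rows, which held 17.95% of it, Fbxw7 KO replicate 3 stood apart (score −6.24, against 2.89 and 3.50 in the other Fbxw7 KO libraries). The fibroblast miRNA Mir21a was at 217422 to 263824 CPM in WT and 265864 to 276440 in Fbxw7 KO (log2 fold change 0.15, edgeR adjusted p = 0.338). Of the 17 miRNAs of the fibroblast list 14 were in the table and 11 could be tested, of which 3 rose (Mir31 1.77, Mir199b 0.65, Mir29a 0.62), 1 fell (Mir10a −0.89) and 7 did not pass. Of the neuronal list 16 of 17 rows were in the table, and Mir9-1, Mir124a-1, Mir124a-2, Mir134 and Mir153 were at 0 counts. The rows of Mir124a-1, Mir124a-2 and Mir134 overlap a host transcript row, so a 0 there is no measure of the miRNA. The summed neuronal list was at 604 to 784 CPM in WT and 445 to 611 in Fbxw7 KO. Most of that sum was Mir132 (338 to 486 CPM in WT, 231 to 327 in Fbxw7 KO) and Mir128-1 (117 to 160 and 129 to 177). Mir9-2, Mir124a-3 and Mir137 reached at most 1.36 CPM in any library. Mir9 and Mir124a each have several gene copies, and reads that align to more than 1 copy may not have been counted. Low or 0 values in their rows are therefore no measure of these miRNAs. Of the 6 tested members of the neuronal list, 0 passed the edgeR test. At an unadjusted p under 0.05, 2 were lower and 0 higher. DESeq2 called 1, lower, and limma 0. The summed muscle list was at 142 to 222 CPM in WT and 217 to 393 in Fbxw7 KO. Nearly all of that sum was Mir206, at 137 to 218 CPM in WT and 212 to 390 in Fbxw7 KO. Its log2 fold change was 0.66 (edgeR adjusted p = 0.11). Of the 2 tested rows of the muscle list, 0 passed the edgeR test (1 with an unadjusted p under 0.05, higher). Of its 8 rows in the table, 5 were at 0 counts, among them the copies of Mir1a and Mir133a, which can share reads. The summed epithelial list was at 21.7 to 25.2 CPM in WT and 16.7 to 62.1 in Fbxw7 KO. Most of that sum was Mir203 (log2 fold change 1.02, edgeR adjusted p = 0.133, unadjusted p under 0.05), the 1 row tested. In bulk RNA, more cells of a type and more of a miRNA per cell cannot be told apart, and the part of other cell types in the members' levels was not tested.

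Mir708, the member with the highest counts, was higher in every Fbxw7 KO library than in any WT library. WT replicates 1 to 3 had 73.6, 87.0 and 51.2 CPM, and Fbxw7 KO replicates 1 to 3 had 325.5, 320.7 and 190.6 CPM. The groups do not overlap, and the lowest Fbxw7 KO library was 2.19 times the highest WT library. The WT mean was 70.6 ± 18.1 CPM and the Fbxw7 KO mean 279 ± 76.6 CPM (SD, n = 3), a log2 fold change of 1.98 (SE 0.266) in the fit over all tested rows. Replicate 3 was the lowest library in both genotypes. The counts behind these values were 197 to 367 in WT and 744 to 1032 in Fbxw7 KO. Counting error alone gave a 95% Poisson interval of 177 to 205 CPM for Fbxw7 KO replicate 3, which lies apart from the 301 to 342 CPM of replicate 2. The reads carry no stated molecular identifiers, so these intervals cover counting error only.

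Mir592 had the same order of groups at a lower level. WT replicates 1 to 3 had 36.7, 28.8 and 20.3 CPM, and Fbxw7 KO replicates 1 to 3 had 117, 124 and 70.4 CPM. Again no library of a genotype overlapped the other genotype, and Fbxw7 KO replicate 3 was the lowest of its group, at 1.92 times the highest WT library. The WT mean was 28.6 ± 8.22 CPM and the Fbxw7 KO mean 103.8 ± 29.1 CPM (SD, n = 3), with a log2 fold change of 1.85 (SE 0.284). The counts were 78 to 183 in WT and 275 to 371 in Fbxw7 KO. The lowest library, WT replicate 3, had a 95% Poisson interval of 16.03 to 25.3 CPM.

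Mir582 also had higher values in all Fbxw7 KO libraries, with a different order inside each genotype. WT replicates 1 to 3 had 22.7, 29.5 and 33.5 CPM, and Fbxw7 KO replicates 1 to 3 had 92.4, 90.4 and 120.1 CPM. Here replicate 3 was the highest library in both genotypes. The gap between the genotypes was wider than for the other members, with the lowest Fbxw7 KO library at 2.69 times the highest WT library. The WT mean was 28.6 ± 5.49 CPM and the Fbxw7 KO mean 101 ± 16.6 CPM (SD, n = 3), and the log2 fold change was 1.83 (SE 0.21). The counts were 113 to 129 in WT and 266 to 469 in Fbxw7 KO.

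**Figure D2:**
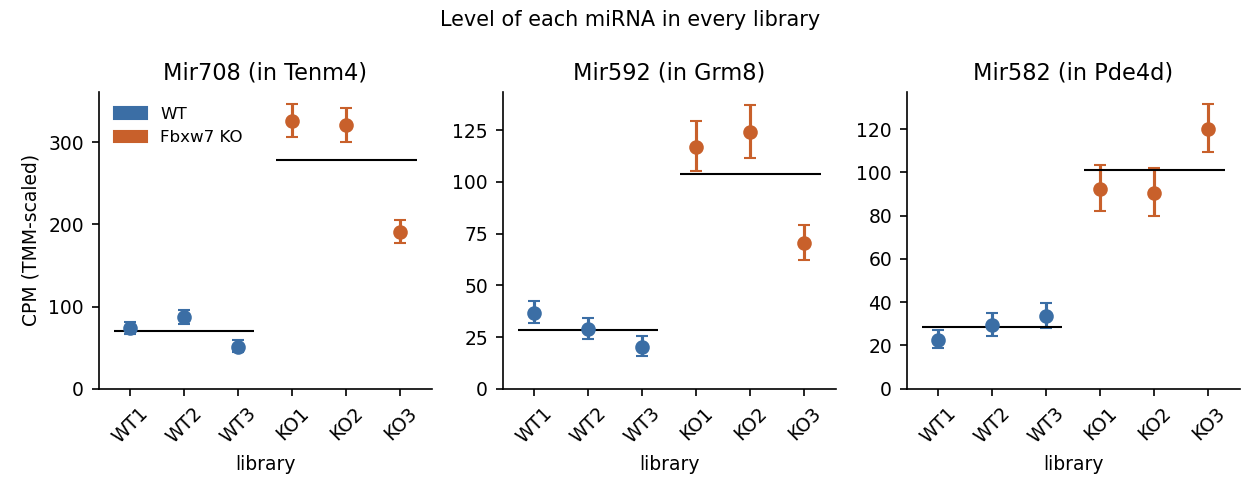
CPM of Mir708, Mir592 and Mir582 in each library, with 95% Poisson intervals for counting error (bars) and the mean of each genotype (black lines); each panel has its own vertical axis from 0. Every Fbxw7 KO library lies above every WT library in all 3 panels, and Fbxw7 KO replicate 3 is the lowest of its group for Mir708 and Mir592 and the highest for Mir582.

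All 3 Fbxw7 KO values exceeded all 3 WT values in 67 of the 283 tested rows, or 23.7%. As the members were chosen for this contrast, nothing is read from their own separation. In the edgeR test 15.2% of the tested rows rose (43 of 283) and 10.2% fell (29 of 283). With TMM factors from rows outside the Dlk1-Dio3 region of chromosome 12, 30 rose and 34 fell. In the order of fitted log2 fold changes, which rests on the difference that chose them, the members stood at positions 9, 10 and 11. Just above them was Mir6236 (1.99, edgeR adjusted p = 0.0414) and just below them Mir31, a miRNA of mesenchymal and epithelial cells (1.77, adjusted p = 0.000666). Without Fbxw7 KO replicate 3, the library that stood apart, the log2 fold changes were 2.204 for Mir708, 2.07 for Mir592 and 1.69 for Mir582. Over all 17 alternatives they ran from 1.79 to 2.204 for Mir708, from 1.65 to 2.08 for Mir592 and from 1.68 to 1.94 for Mir582.

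Levels of different rows were compared per hairpin length, on the FPKM scale of the authors' deposited table. On it Mir708 was at 641 ± 154 FPKM in WT and at 2577 ± 696 FPKM in the Fbxw7 KO group (SD, n = 3). Mir592 was at 296 ± 90.4 and 1089 ± 298 FPKM, and Mir582 at 349 ± 63.4 and 1258 ± 218 FPKM, in the same order. The level of Mir708 was thus above those of the other members in every library, while Mir592 and Mir582 changed places between libraries. Ranked by mean FPKM over the 1155 rows, Mir708 stood at position 161 in WT and 110 in Fbxw7 KO, Mir592 at 184 and 143, and Mir582 at 176 and 134.

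The ratio of Mir708 to Mir592 differed between the genotypes by less than the spread of the WT libraries, with means of 2.22 ± 0.449 in WT and 2.37 ± 0.0867 in the Fbxw7 KO libraries (SD, n = 3). On the FPKM scale it was 1.77, 2.66 and 2.22 in WT replicates 1 to 3 and 2.45, 2.28 and 2.38 in Fbxw7 KO replicates 1 to 3. All 3 Fbxw7 KO ratios fall inside the WT range. The ratio of Mir708 to Mir582 was 2.41, 2.19 and 1.13 in WT and 2.62, 2.64 and 1.18 in Fbxw7 KO. In both genotypes replicate 3 had by far the lowest value of that ratio, and the ranges of the genotypes overlap. All members were chosen on their higher counts in Fbxw7 KO. Nothing is therefore read from the likeness of these ratios between the genotypes.

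The deviation of each library from the mean of its own genotype does not use the difference that chose the members. On the log2 CPM scale, replicate 3 deviated by −0.43 in WT and −0.51 in Fbxw7 KO for Mir708, and by −0.45 and −0.52 for Mir592. For Mir582 it deviated by 0.25 and 0.26, in the opposite direction. The other libraries deviated by −0.31 to 0.40 over the 3 members. Replicate 3 was the lowest library in both genotypes for 55 of the 283 tested rows (19.4%), as for Mir708 and Mir592, and the highest in both for 51 rows (18.02%), as for Mir582. The labels do not say that equal numbers mark a shared culture or day. The SD of log2 CPM within a genotype was 0.42 for Mir708, 0.44 for Mir592 and 0.26 for Mir582, against a median of 0.25 over the tested rows. For Mir708, 216 rows had a smaller SD, and for Mir592 224 rows did.

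**Figure D3:**
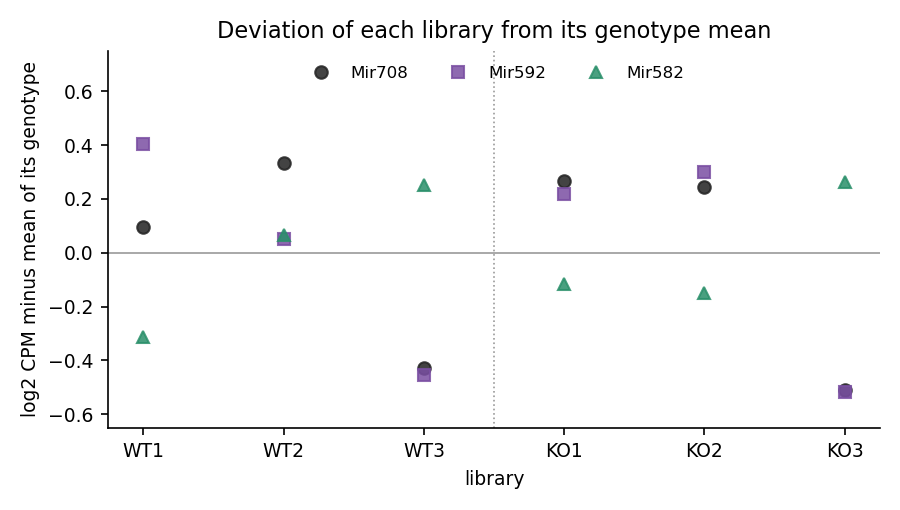
Log2 CPM of Mir708, Mir592 and Mir582 in each library (WT left of the dotted line, Fbxw7 KO right of it) minus the mean of the library's genotype. Replicate 3 lies between −0.52 and −0.43 for Mir708 and Mir592 in both genotypes, and at 0.25 and 0.26 for Mir582.

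Profiles over the 6 libraries were compared by the root mean square difference of log2 CPM after each row was centred on its own mean. This measure includes the genotype difference on which the members were chosen. The order of likeness is therefore a description, and nothing is read from how near the members stand to each other. Of the 282 other tested rows, Mir592 was the nearest to Mir708, at 0.18, and the reverse also held. The rows outside the members nearest to Mir708 were Mir6240 (0.36), Mir3535 in Ncl (0.38) and Mir1298 in Htr2c (0.42). These were also the 3 nearest to Mir592, at 0.33, 0.40 and 0.47. Mir6240 and Mir1298 are rows of low counts, with at most 10.7 and 8.15 CPM in any library. Mir582 was nearest to Mir31 (0.22), Mir344b (0.26) and Mir378c (0.39), and Mir344b shares sequence with other rows, which makes its count uncertain. Mir708 stood at position 13 and Mir592 at position 16 in the order of likeness to Mir582.

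Mir28a, in an intron of Lpp, a gene of focal adhesions, was the 1 other counted row whose RefSeq mature arm has the seed of a member arm. Its 5p arm is identical to miR-708-5p at 16 of 22 positions when both are aligned from base 1 without gaps. Mir28b carries the same 7 bases shifted by 1 position, and its row was at 0 counts. Mir7218, with a shifted match to miR-582-3p, was also at 0. Mir28a had 1611, 1561 and 1732 CPM in WT replicates 1 to 3 and 1129, 1101 and 1493 CPM in Fbxw7 KO replicates 1 to 3. All Fbxw7 KO values lie below all WT values, an order whose share over all tested rows was not counted. The fitted log2 difference of −0.40 (SE 0.149, edgeR adjusted p = 0.085) did not pass the threshold of 0.05. Without Fbxw7 KO replicate 3 it did pass (−0.54, adjusted p = 0.0104), and it also passed with TMM factors from rows outside the Dlk1-Dio3 region (−0.53, adjusted p = 0.0323). Over the 17 alternatives its adjusted p ran from 0.0104 to 0.248. The comparison of seeds covers only rows with a mature arm in the RefSeq sequences used, which held a hairpin for 926 of the 1155 rows. The seed of Mir28c in Samd12 was not checked here, so the comparison does not cover it. This row, picked after its values were seen for its family name, had a log2 fold change of −0.21 (edgeR adjusted p = 0.309).

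Mir28a was far more abundant per hairpin length than Mir708 in every library. On the FPKM scale Mir708 made up 3.48%, 4.21% and 2.28% of the sum of Mir708 and Mir28a in WT replicates 1 to 3. In Fbxw7 KO replicates 1 to 3 it made up 18.5%, 18.7% and 9.15%. This share rises with Mir708 itself, which was chosen on its higher counts in Fbxw7 KO. Nothing is therefore read from the gap between the genotypes. The sum itself was 18169 to 20546 FPKM in WT and 15586 to 19421 in Fbxw7 KO, and these ranges overlap. Both arms of each hairpin enter these values, so they are not levels of the shared seed alone, and Mir28c is not included.

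**Figure D4:**
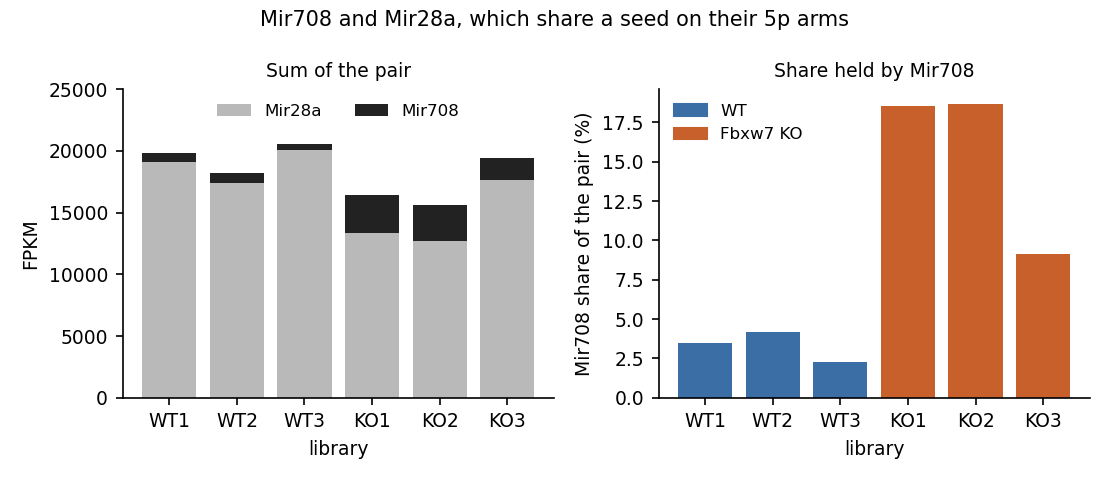
Left, FPKM of Mir28a (grey) and Mir708 (black) stacked for each library; right, the share of that sum held by Mir708 in percent, with WT in blue and Fbxw7 KO in orange. The sum ranges overlap between genotypes, while the Mir708 share is at most 4.21% in WT and at least 9.15% in Fbxw7 KO. The share rises with Mir708, which was chosen on this contrast.

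Besides the members, 141 tested rows lie inside a coding gene on its strand, and in the edgeR test 17 of these rose (12.1%), 7 fell (4.96%) and 117 did not pass, beside 15.2% and 10.2% over all tested rows. With TMM factors from outside the Dlk1-Dio3 region, 10 rose and 9 fell. Their median log2 fold change was 0.08, against 0.05 over all 283 tested rows. In 32 of the 141 all Fbxw7 KO libraries lay above all WT libraries, near the share over all tested rows (67 of 283, or 23.7%). The largest rises past the threshold were Mir672 in Nexmif (3.64), Mir694 in Ccbe1 (3.18), Mir1298 in Htr2c (1.53) and Mir3535 in Ncl (1.42). The largest falls were Mir383 in Sgcz (−2.95), Mir615 in Hoxc5 (−1.62), Mir196a-2 in Hoxc5 (−0.94, with sequence shared with Mir196a-1) and Mir3081 in Boc (−0.82), with edgeR adjusted p values of 0.000226 to 0.037 over the 8. Mir694, Mir1298 and Mir383 had under 10 CPM on average in both genotypes. The calls of Mir1298, Mir3535 and Mir3081 ended in 8 of 16, 3 of 17 and 6 of 17 alternatives. Single libraries also moved these counts. Leaving out WT replicate 1 or 2 gave 9 or 7 rises and 3 falls each. Leaving out Fbxw7 KO replicate 1 gave 10 rises and 4 falls, and leaving out replicate 2 of that group gave 5 and 3.

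The length of the host is a property the selection did not use. The tested rows in coding genes lie in 124 different hosts with a median length of 45.3 kb. Pde4d, at 1504 kb, was the longest of them, and Grm8 (860.1 kb) and Tenm4 (739.8 kb) came at positions 3 and 4, behind Sgcz (1139 kb). Hosts of 500 kb or more held 5 other tested rows. They were Mir383, which fell, Mir21b in Egfem1 (0.14, edgeR adjusted p = 0.86), Mir28a, Mir218-2 in Slit3 (0.07, adjusted p = 0.844; it shares sequence with Mir218-1) and Mir504 in Fgf13 (−0.46, adjusted p = 0.325). Of these 5, 0 rose and 1 fell by edgeR, against 15.2% and 10.2% of all tested rows, shares that 5 rows are too few to be set apart from. At an unadjusted p under 0.05, 0 were higher and 2 lower, and DESeq2 and limma each called 0 higher and 1 lower. The limit of 500 kb, and with it these names, was chosen after the values were seen.

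**Figure D5:**
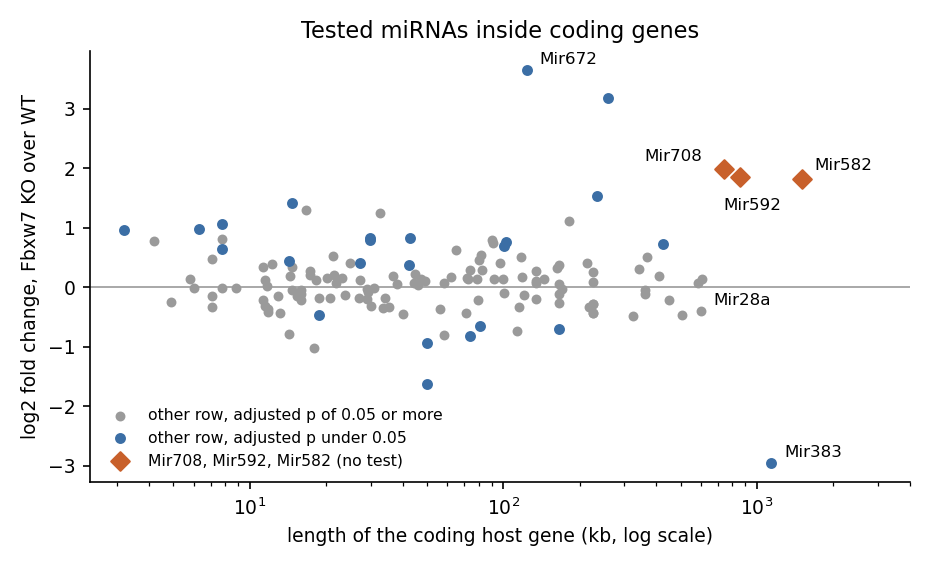
Fitted log2 fold change (Fbxw7 KO over WT) of each tested miRNA inside a coding gene against the length of the host gene in kb on a log scale, with Mir708, Mir592 and Mir582 as orange diamonds, other rows past the threshold in blue and the rest in grey. The 3 members lie at 1.83 to 1.98 in hosts of 739.8 to 1504 kb, and Mir383, in a host of 1139 kb, lies at −2.95.

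Because Mir708 is known from endoplasmic reticulum stress, other miRNAs tied to that response in the literature were listed, without Mir708. Of the 19 listed, 15 were in the table and 9 could be tested. Among these, 4 rose, 1 fell and 4 did not pass the edgeR test, where 15.2% of all tested rows rose and 10.2% fell, with a median log2 fold change of 0.49 against 0.05 over all tested rows. The 4 that rose were Mir93 (1.07, adjusted p = 0.0021) and Mir106b (0.64, adjusted p = 0.0091) in Mcm7, Mir29a (0.62, adjusted p = 0.00788) and the p53 target Mir34a (0.49, adjusted p = 0.0365). The call of Mir34a ended in 6 of 17 alternatives, and those of Mir106b and Mir29a ended without Fbxw7 KO replicate 2 (adjusted p = 0.0522 and 0.0512). Mir96, a sensory organ miRNA, fell (−2.20, adjusted p = 0.00114). Mir25, a listed row that did not pass (0.81, edgeR adjusted p = 0.07), lies in the same host, Mcm7, as Mir93 and Mir106b. The rest that did not pass were Mir322 (0.27, adjusted p = 0.568), Mir455 (−0.12, adjusted p = 0.488) and Mir221 (−0.44, adjusted p = 0.146). The rises and falls were not set against the direction each miRNA is known to take in that response. A stress response was not tested. The list was written with earlier results of these libraries known.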

How the data were processed

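Small RNA libraries of 3 WT and 3 Fbxw7 KO samples were grouped by the genotype label. The count table was made by the authors with featureCounts 1.6.4, per the file headers, by gene name and ignoring strand, and its values are whole read counts per hairpin row. The recorded command does not switch on the counting of reads with several alignments or over several rows. The deposited FPKM table equals counts per hairpin length and TMM-scaled library total within a relative difference of 1e-06 in the 1130 rows of a single interval. The submitters' processing notes name mm10 as the build, and Cufflinks 2.2.1, TopHat2 2.1.1, deepTools and SAMtools 1.5 as tools. What each tool did, and how adapters were trimmed, is not given in the sources used here.

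Counts were fitted with edgeR 4.0.16 in R 4.3.3 (glmQLFit, robust, glmQLFTest, TMM factors, genotype as the only term), after filterByExpr (minimum count 10, minimum total 15) left 283 of 1155 rows. P-values are 2-sided and Benjamini-Hochberg adjusted over the 283 rows, with a threshold of 0.05. The SE was taken from the F statistic. The pipeline was tested on simulated counts. Alternatives used other scaling factors, DESeq2 1.42.0, other filters, limma 3.58.1 on log2(FPKM + 1) or log2(FPKM + 0.1), a replicate block, and each library left out. Hosts come from GENCODE M21, in which 1133 rows have the same coordinates, and sequences from RefSeq (GRCm38.p6), which has a hairpin for 926 rows.

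The members and lists were chosen with earlier results of these data known. The miRNAs named are the members, seed relatives, rows in the same hosts, and the 3 rows nearest to each member in profile. Also named are the neighbours in the order of fold changes and the 4 largest rises and falls in coding genes. The tested members of the stress list, Mir21a and markers are named too.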

Additional observations from a re-analysis of the deposited data

How the results depend on the processing

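The log2 fold changes of Mir708, Mir592 and Mir582 moved by less than the spread between replicates in all 17 alternatives. The number of miRNAs that changed, 72 in the fit as described, ran from 34 to 78 when single libraries were left out (42, 35 and 34 without WT replicate 1, WT replicate 2 and Fbxw7 KO replicate 2). The number of other miRNAs in coding genes that rose ran from 5 to 19 when single libraries were left out, and was 10 with TMM factors from outside the Dlk1-Dio3 region and 11 with limma on FPKM without a filter. The number that fell, 7 as described, ran from 3 to 6 when single libraries were left out, and was 9 with those TMM factors, 8 with RLE size factors, 3 with a minimum of 10 CPM in 3 libraries and 4 with limma on FPKM without a filter. Factors from outside the Dlk1-Dio3 region moved the median log2 fold change of the tested rows from 0.05 to −0.07, with 30 higher and 34 lower against 43 and 29. Mir28a passed the threshold with those factors (−0.53) and with a replicate block (−0.41, adjusted p = 0.0438), and leaving out single libraries gave −0.54 to −0.34. The cause of these changes was not tested. Deviations of same-numbered libraries correlated at −0.06, 0.13 and 0.15 over the 283 rows, so the numbers were not treated as pairs. With the replicate block the log2 fold changes were 1.97 for Mir708, 1.86 for Mir592 and 1.83 for Mir582. With 78 to 183 WT counts for Mir592 and 113 to 129 for Mir582, counting error limits the precision of their WT levels.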
